A study of Homo sapiens with 12 samples.

Results

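MicroRNAs are cut from longer transcripts by a short chain of enzymes, and 9 genes of that chain were followed here in MDA-MB-231 cells, an established human line of triple-negative breast cancer. The 9 genes were taken by symbol with no cut on their values, though earlier results of these data were known: DROSHA (RNASEN in older annotation), DGCR8, DDX5, DDX17, XPO5, RAN, DICER1, TARBP2 and PRKRA. They are 9 of the 18252 genes measured on the exon arrays, and 168 of their 175 probes were above background often enough to be used. Each array reports the Cy3 brightness of one total RNA sample, and a gene's value is the mean log2 normalized signal of its probes. Levels are on that log2 scale, differences are log2 differences between groups, and the level of one gene cannot be set against the level of another.

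The 12 arrays form 4 groups of 3. The group cntrl received a control mimic and a control siRNA. In mimic145 the cells overexpressed miR-145 from a transfected precursor, in sirnaAGO2 the gene AGO2 was silenced, and in sirnaAGO2+mimic145 both treatments were combined. Precursor or control oligonucleotide was given at 5 nM and Dicer-substrate siRNA at 500 pM for 72 h. Which control oligonucleotide accompanied each single treatment is not spelled out in the labels. The groups therefore compare transfected cells with transfected cells, with no untreated cells among them, and both kinds of oligonucleotide are themselves double-stranded RNAs. The design calls the replicates biological, and replicate numbers pair the arrays across groups.

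In the nucleus, DROSHA and its partner DGCR8 form the Microprocessor, which cuts the hairpin out of a primary microRNA transcript, and the helicases DDX5 and DDX17 assist with a subset of hairpins. Exportin-5 (XPO5) carries the hairpin to the cytoplasm together with the GTP-bound form of RAN. DICER1 then removes the loop, helped by the double-stranded RNA-binding proteins TARBP2 (TRBP) and PRKRA (PACT), and an Argonaute protein such as AGO2 takes up the mature strand.

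The transfected microRNA and the microRNAs carried by the genes DGCR8 and DICER1 are shown for orientation. They are given 5′ to 3′ as listed by RefSeq on GRCh38.p14, with the seed, bases 2 to 8, in capitals. The gene for miR-145-5p lies on chromosome 5, and its mature strand is at chr5:149430661-149430683 on the plus strand. DGCR8, whose own mRNA holds hairpins that the Microprocessor is known to cut, spans chr22:20080241-20111872 on the plus strand and contains the genes of miR-3618 and miR-1306. DICER1, at chr14:95086228-95158010 on the minus strand, contains the gene of miR-3173. DDX5 contains 2 more microRNA genes, for miR-3064 and miR-5047, whose strands are not printed.
hsa-miR-145-5p: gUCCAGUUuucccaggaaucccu
hsa-miR-3618: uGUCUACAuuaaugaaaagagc
hsa-miR-1306-5p: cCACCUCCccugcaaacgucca
hsa-miR-1306-3p: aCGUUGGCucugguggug
hsa-miR-3173-5p: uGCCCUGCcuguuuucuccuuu
hsa-miR-3173-3p: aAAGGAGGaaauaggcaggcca
The 5 microRNA genes inside DGCR8, DICER1 and DDX5 give 8 listed mature strands with 8 distinct seeds, and 0 of the 8 has the seed of miR-145-5p. All 5 run in the direction of their host gene. Their mature products were not measured by these arrays.

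AGO2 went with the labels. Its level was 9.21, 9.14 and 9.01 in cntrl and 9.44, 9.36 and 9.39 in mimic145. After silencing it was 8.35, 8.44 and 8.42 in sirnaAGO2 and 8.27, 8.35 and 8.41 in sirnaAGO2+mimic145. All 6 silenced arrays were below all 6 others. Against cntrl, 61.0% of the signal was left in sirnaAGO2 (log2 difference -0.71, limma adjusted p = 0.00494). Against mimic145, 48.1% was left in sirnaAGO2+mimic145 (-1.06, adjusted p = 7.9e-04). These 2 shares have different bases, since AGO2 was higher in mimic145 than in cntrl by 0.28 (adjusted p = 0.0299). The 2 silenced groups differed by -0.06 (adjusted p = 0.607). AGO2 mRNA was reduced and still measured on every silenced array. Without sirnaAGO2 replicate 1 the difference between sirnaAGO2 and cntrl was -0.68 and its limma adjusted p 0.0524.

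Of the lineage markers, VIM, CD44, MSN, AXL and CAV1, typical of this mesenchymal-like line, had 59 of 62 probes above background on all 12 arrays. Of genes listed as low, the progesterone receptor gene PGR had 0 of 9, ESR1 had 3 of 14 and CDH1 had 4 of 16. KRT19, EPCAM and ERBB2, listed as low in this line, were nevertheless well above background at 100%, 85% and 82.8% of their probe readings, so those 3 went against the list. Of 128 probes for fibroblast and blood cell genes, 39 were above background on all arrays, 29 of them for COL1A1, and the mean level of that list lay between 6.11 and 6.43 in the 4 groups. Across that list, readings above background ran from 13.6% for PTPRC to 58.7% for CSF1R and 79.2% for COL1A1. In RNA from a whole culture, a lower level in every cell and a loss in some of the cells cannot be told apart. Each slide held one array without and one with the mimic, always in the same positions, so slide position and mimic cannot be told apart, and no slide held arrays of both Ago2 states.

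The group means of the 9 genes differed by 0.47 for DROSHA, the widest range, then 0.43 for DDX17 and 0.41 for DICER1, and by as little as 0.11 for RAN and PRKRA. These ranges were not set beside those of all genes. DROSHA fell with the mimic in both Ago2 states, and DICER1 rose on Ago2 silencing without the mimic. No other member passed the test in any comparison of one group with another.

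**Figure D1:**
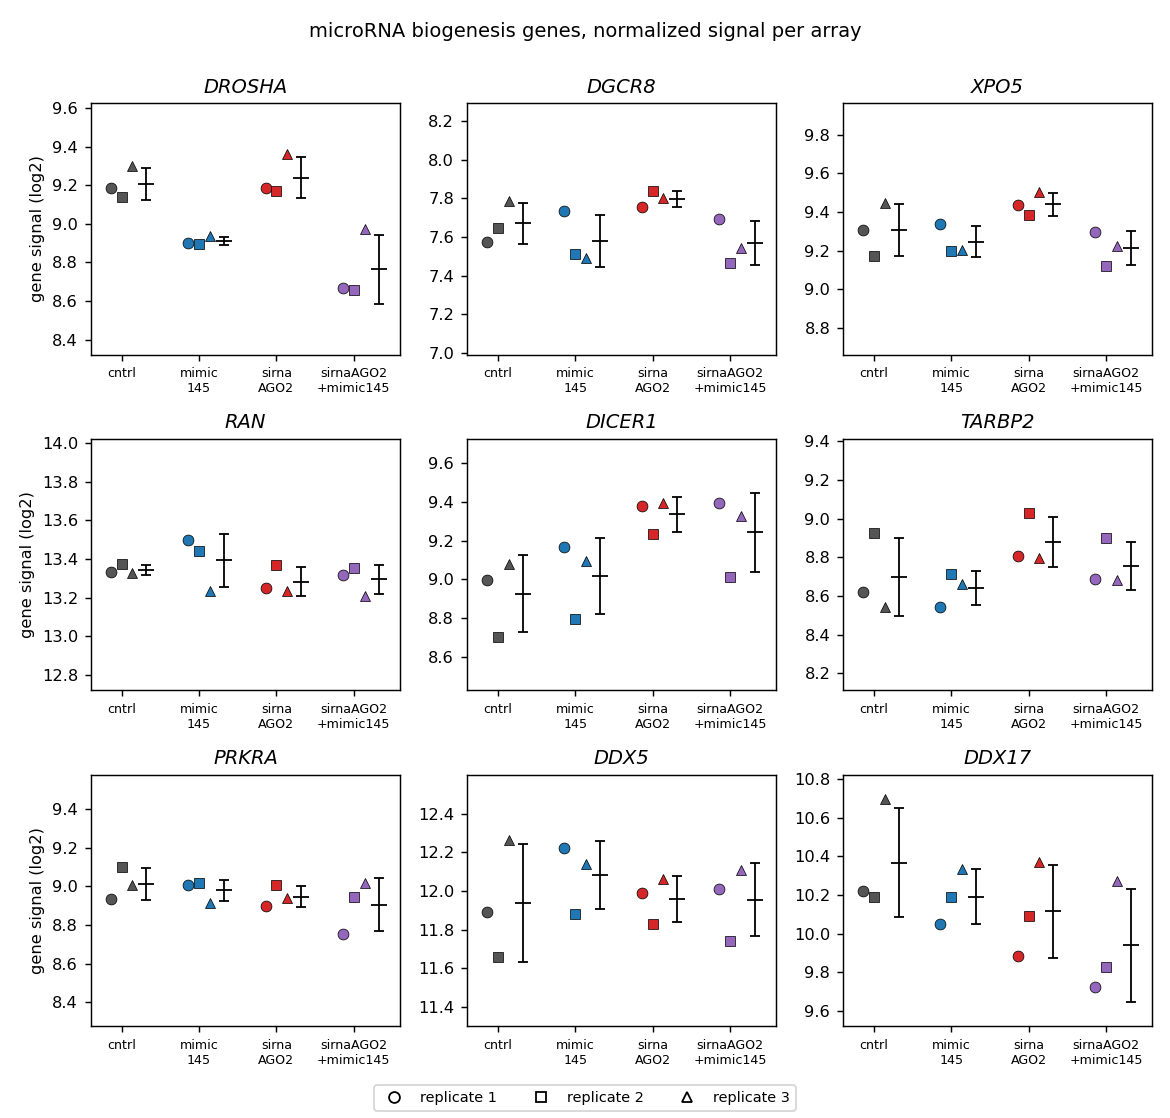
Levels of the 9 microRNA biogenesis genes (vertical axes, log2 normalized signal, each gene on its own scale) on the 12 arrays, grouped as cntrl, mimic145, sirnaAGO2 and sirnaAGO2+mimic145. Points are arrays, with the symbol giving the replicate number, and the lines with bars are means and SD (n = 3). DROSHA is lower on the 6 mimic arrays than on the 6 others, and DICER1 is higher on the sirnaAGO2 arrays than on the cntrl arrays.

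DROSHA, the nuclear RNase that begins the process, was 9.19, 9.14 and 9.30 in cntrl. With the mimic it was 8.90, 8.89 and 8.94. In the Ago2-silenced cells it was 9.18, 9.17 and 9.36 without the mimic and 8.67, 8.66 and 8.97 with it. The 6 mimic arrays were all below the 6 arrays without it. The combined group was the most scattered, with an SD of 0.18 against 0.02 in mimic145, with replicate 3 the high array.

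The first question is what the mimic did where Ago2 was present. DROSHA fell by 0.30 (95% interval -0.455 to -0.139, limma adjusted p = 0.0159), to 0.814 of the control level, and it was lower in 3 of 3 replicate pairs, by 0.28, 0.24 and 0.36. It was the only member called, 1 of 9, where 22.5% of all genes tested were called and 11% were called lower. The group values of 1 of 9 members did not overlap, beside 28.4% of all genes. An exact permutation test of 3 arrays against 3, which does not use the pairing, gives p = 0.1 for DROSHA, the smallest p it can give. The call was lost when the fit left out the replicate block (adjusted p = 0.0974) or when cntrl replicate 1 (0.0635), cntrl replicate 2 (0.0520) or mimic145 replicate 3 (0.0595) was removed, with differences from -0.30 to -0.24 in those 3 refits of DROSHA, where 15.2% to 17% of all genes were called.

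The same question was then asked in Ago2-silenced cells. DROSHA fell there by 0.47 (95% interval -0.633 to -0.317, limma adjusted p = 0.0122), to 0.720 of the level in sirnaAGO2, and by 0.52, 0.51 and 0.39 in the 3 pairs. It was again 1 of 9 members called, beside 7.28% of all genes called and 3.03% called lower. Removing sirnaAGO2 replicate 2 (adjusted p = 0.0671) or replicate 3 (0.0702), or the replicate block (0.0850), ended the call for DROSHA with the difference between -0.48 and -0.47, in fits that called 0.378% to 0.427% of all genes. The mimic effects in the silenced and unsilenced cells differed by -0.18 for DROSHA, and the interval of that difference ran from -0.402 to 0.045 (adjusted p = 0.392), so a difference between the Ago2 states was not shown.

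Ordered by group mean, DROSHA stood at 9.24 in sirnaAGO2, 9.21 in cntrl, 8.91 in mimic145 and 8.76 in sirnaAGO2+mimic145. The first pair of neighbours differed by 0.03 (interval -0.126 to 0.190, limma adjusted p = 0.835) and the last pair by -0.15 (-0.304 to 0.012, adjusted p = 0.268). The step that passed the test was the one between groups without and with the mimic. With the effect averaged over both Ago2 states, a fit added after these values had been seen, the DROSHA difference was -0.39 (interval -0.497 to -0.274, adjusted p = 8.2e-04), where 30.9% of all genes were called.

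The fall was seen at most probes of DROSHA. Of 36 probes of DROSHA, 35 were lower with the mimic with Ago2 present, with differences from -1.18 to 0.04 and a median of -0.25, and 35 were lower in silenced cells, from -2.07 to 0.21 with a median of -0.36. Probes of one gene share the RNA of an array and are not replicates. Among the 1362 genes with at least 20 probes in use, 14% had at least as large a share of their probes on one side as DROSHA in the first comparison and 4.92% in the second. The 32 probes of one RefSeq transcript of DROSHA averaged -0.28 and -0.41 in these comparisons, and the 4 assigned to another averaged -0.42 and -1.02. The last value depended on 1 probe and 1 array of DROSHA: it was -0.67 over the other 3 probes, and -0.71 over the 4 probes without sirnaAGO2+mimic145 replicate 1.

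One of the DROSHA probes carried the extreme value and rested on a single array. It read 12.58, 12.51 and 11.82 in cntrl, 10.85, 11.75 and 12.51 in mimic145, 12.53, 11.78 and 13.08 in sirnaAGO2, and 7.49, 11.37 and 12.33 in sirnaAGO2+mimic145. Replicate 1 of the combined group stood apart at this probe and at a second one of DROSHA, where it read 6.80 and the 11 other arrays read 8.81 to 9.87. Without the whole combined replicate 1 array the DROSHA difference in silenced cells was -0.44 (limma adjusted p = 0.0176). Restricted to the 29 of its 37 probes that cleared background on every array, DROSHA fell by 0.33 in silenced cells (adjusted p = 0.0137) and by 0.23 with Ago2 present (adjusted p = 0.0175). With the median over probes in place of the mean, DROSHA was called in neither Ago2 state. With Ago2 present, that fit still called 18.5% of all genes.

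**Figure D2:**
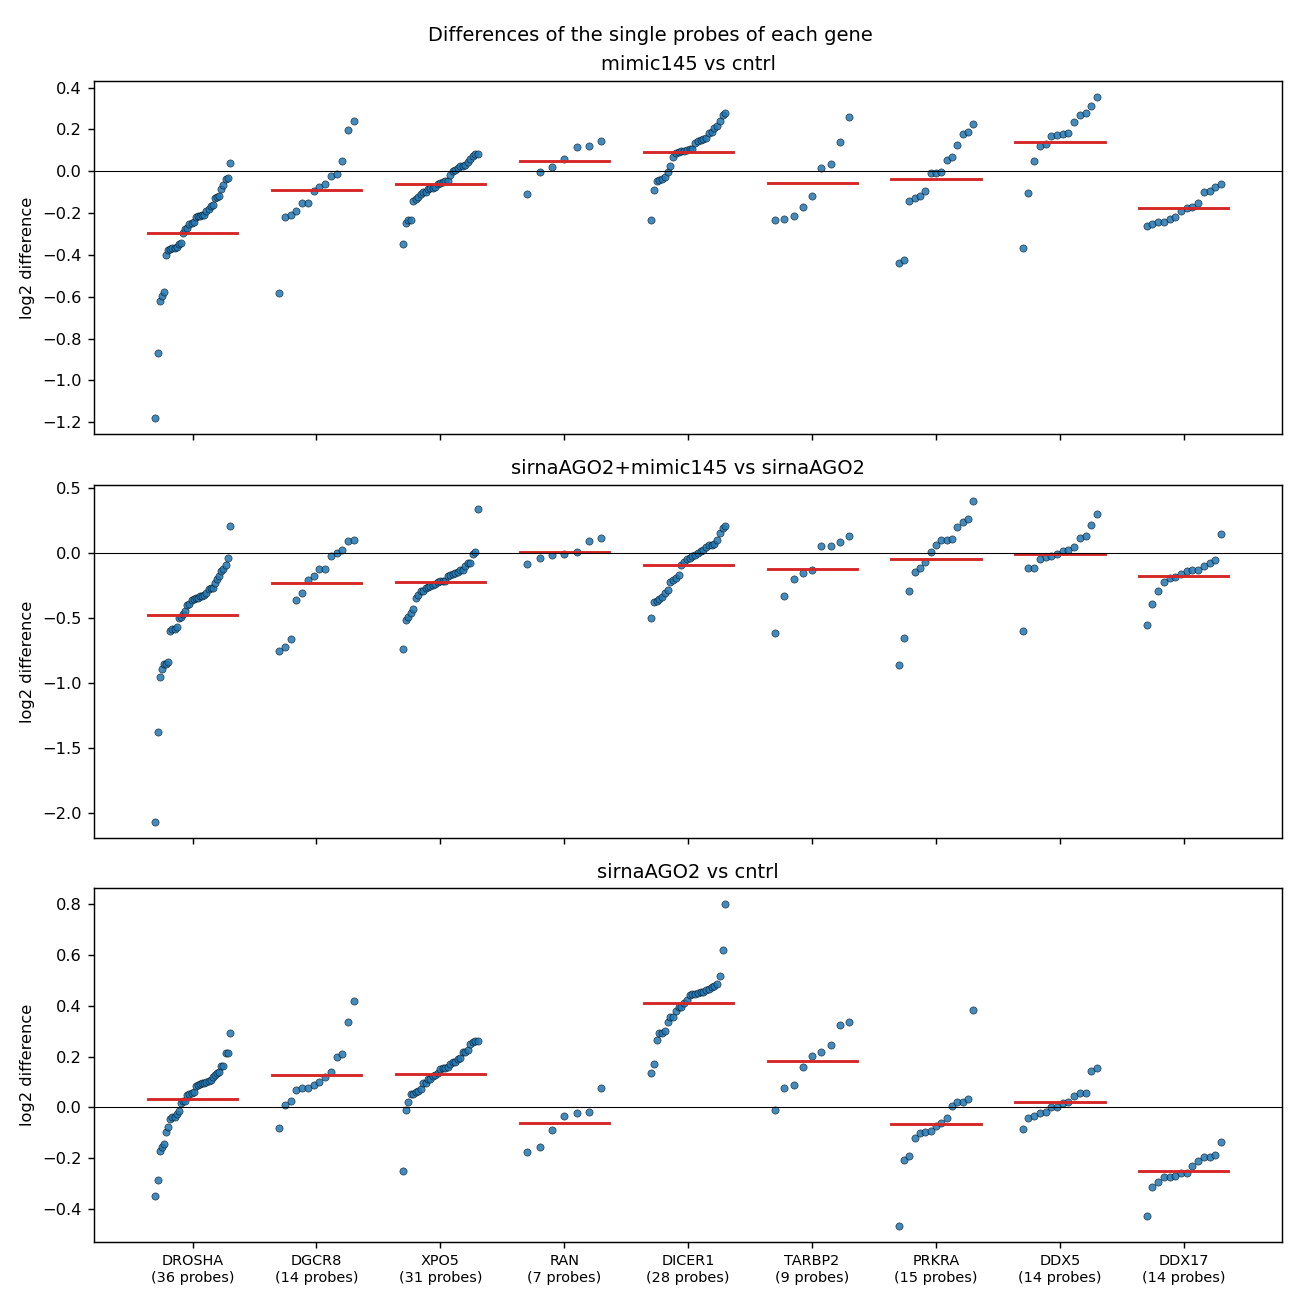
Log2 difference of each probe in use (points, sorted by value within a gene) and the mean over a gene's probes (red lines) for the 9 genes, in the comparisons of the mimic with Ago2 present (top), the mimic in silenced cells (middle) and silencing without the mimic (bottom), each with its own vertical scale. With the mimic, 35 of 36 DROSHA probes lie below zero in both panels, and on Ago2 silencing 28 of 28 DICER1 probes lie above it.

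DGCR8, the RNA-binding partner that holds the hairpin for DROSHA, lay between 7.47 and 7.84 on the 12 arrays. It read 7.75, 7.84 and 7.80 in sirnaAGO2 and 7.69, 7.47 and 7.54 in sirnaAGO2+mimic145, so the mimic arrays were all lower there. The difference of -0.23 (interval -0.442 to -0.020) did not pass over all genes (limma adjusted p = 0.145). With Ago2 present it was -0.09 (interval -0.303 to 0.120, adjusted p = 0.527), and on silencing 0.13 (-0.083 to 0.339, adjusted p = 0.497), where 13 of its 14 probes were higher. Of genes with at least 10 probes in use, 15.9% had every probe on one side on silencing without the mimic. Genes that, like DGCR8, had a probe on the other side are left out of that share. With the mimic in both groups the silencing difference of DGCR8 was -0.01 (-0.223 to 0.200, adjusted p = 0.960). The 2 RefSeq transcripts of DGCR8 on the array, 7 probes each, differed by -0.36 and -0.10 with the mimic in silenced cells.

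The helicases DDX5 and DDX17 also act in transcription and splicing, and neither passed the test between any pair of groups. DDX5 ranged from 11.66 to 12.27, and its cntrl arrays, at 11.89, 11.66 and 12.27, held both the lowest and the highest value. Its 4 differences lay between -0.13 and 0.14, with limma adjusted p-values from 0.300 to 0.977. DDX17 read 10.22, 10.19 and 10.69 in cntrl and 10.05, 10.19 and 10.33 in mimic145. It read 9.89, 10.09 and 10.37 in sirnaAGO2 and 9.72, 9.83 and 10.27 in sirnaAGO2+mimic145. Replicate 3 was the highest in each group, and the groups overlapped in every comparison.

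On Ago2 silencing DDX17 differed by -0.25 without the mimic (interval -0.437 to -0.068, limma adjusted p = 0.142) and by -0.25 with it (-0.436 to -0.067, adjusted p = 0.117), lower in 3 of 3 pairs both times. For the mimic it was -0.18 in both Ago2 states (adjusted p = 0.158 and 0.192). None of these passed on its own. Averaged over the other treatment, in the fits added after seeing the values, DDX17 passed both for silencing (-0.25, interval -0.383 to -0.122, adjusted p = 0.0351, where 7.05% of all genes were called) and for the mimic (-0.18, interval -0.306 to -0.045, adjusted p = 0.0461). Of its 14 probes, 14 were lower on silencing without the mimic and 13 with it. Among genes with at least 10 probes in use, 15.9% and 7.92% had every probe on one side in these comparisons. The second share leaves out genes that, like DDX17 there, had a probe on the other side.

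XPO5, the export receptor for hairpins, was 9.43, 9.38 and 9.50 in sirnaAGO2 and 9.30, 9.12 and 9.22 in sirnaAGO2+mimic145, again with the mimic arrays all lower. The difference of -0.22 (interval -0.388 to -0.061) had a limma adjusted p of 0.0860, with 29 of 31 probes lower. Among genes with at least 20 probes in use, 4.41% had every probe on one side there. That share leaves out genes that, like XPO5, had a few probes on the other side. With Ago2 present the XPO5 difference was -0.06 (interval -0.226 to 0.101, adjusted p = 0.581). On silencing XPO5 differed by 0.13 without the mimic (-0.032 to 0.295, adjusted p = 0.364) and by -0.03 with it (-0.194 to 0.133, adjusted p = 0.842). DROSHA, DGCR8 and XPO5 were thus the 3 of 9 members whose groups did not overlap for the mimic in silenced cells, all with the mimic lower, beside 24.1% of all genes with no overlap in either direction. RAN, the GTPase that loads exportins, stayed between 13.21 and 13.50 on all arrays, and its 4 differences ran from -0.10 to 0.05 with adjusted p-values from 0.454 to 0.932.

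DICER1, the cytoplasmic RNase that cuts hairpins and also the Dicer-substrate siRNAs used here, was 8.99, 8.70 and 9.08 in cntrl and 9.38, 9.23 and 9.40 in sirnaAGO2. With the mimic it was 9.17, 8.80 and 9.09 and, after silencing as well, 9.39, 9.01 and 9.33. Replicate 2 was the lowest in each group. The sirnaAGO2 arrays were all above the cntrl arrays, while mimic145 and sirnaAGO2+mimic145 overlapped.

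Silencing of Ago2 thus went with a DICER1 level higher by 0.41 (interval 0.254 to 0.569, 1.33-fold, limma adjusted p = 0.0244), higher in 3 of 3 pairs by 0.39, 0.53 and 0.32. It was 1 of 9 members called, beside 2.58% of all genes called and 0.888% called higher, and the 1 of 9 without overlap, beside 19.1% of all genes. The exact permutation test gives p = 0.1, the smallest p for 3 against 3. Removing any one of the 6 arrays compared ended the call of DICER1, with differences from 0.35 to 0.45 and adjusted p-values of 0.132, 0.0813 and 0.0576 without cntrl replicates 1, 2 and 3, and 0.0959, 0.103 and 0.107 without sirnaAGO2 replicates 1, 2 and 3; without the replicate block the adjusted p was 0.333. Those 6 refits called 0.126% to 1.02% of all genes, and the fit without the block 0.263%.

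With the mimic present in both groups, the DICER1 difference on silencing was 0.22 (interval 0.067 to 0.382, limma adjusted p = 0.106), with pairs at 0.23, 0.21 and 0.23. In that comparison 0 of 9 members were called and 0 of 9 had groups apart, beside 4.31% of all genes called by limma and 14.8% without overlap; at an unadjusted p under 0.05 there were 2 of 9, DICER1 and DDX17, beside 21.5% of all genes. Averaged over both mimic states, in the fit added after seeing the values, DICER1 was higher by 0.32 on silencing (interval 0.206 to 0.429, adjusted p = 0.00837). The mimic itself left DICER1 at 0.09 above control with Ago2 present (interval -0.064 to 0.251, adjusted p = 0.374) and at -0.09 in silenced cells (-0.251 to 0.064, adjusted p = 0.405).

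By probe, 28 of 28 for DICER1 were higher on silencing without the mimic, from 0.13 to 0.80 with a median of 0.43, and 26 of 28 with it. Among genes with at least 20 probes in use, 9.99% had every probe on one side in the first of these comparisons and 3.08% in the second. The second share leaves out genes that, like DICER1 there, had a few probes on the other side. Nothing in these values separates the host transcript from the miR-3173 hairpin, which lies within the DICER1 gene and whose mature strands are printed above.

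**Figure D3:**
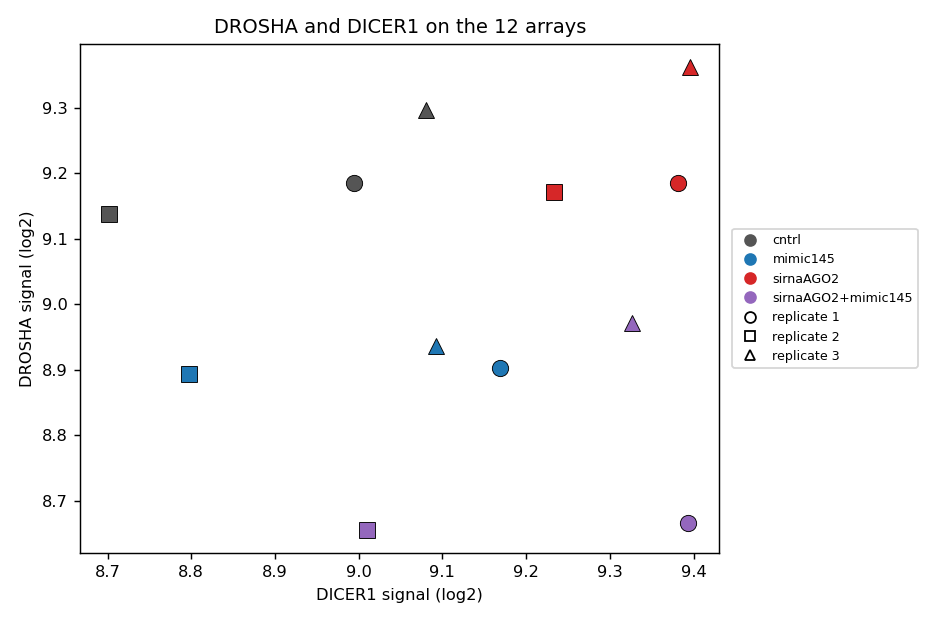
DROSHA (vertical axis) against DICER1 (horizontal axis), both in log2 normalized signal, on the 12 arrays, with the color giving the group and the symbol the replicate number. The 6 mimic arrays lie below the 6 others on the DROSHA axis, at 8.66 to 8.97 against 9.14 to 9.36, and on the DICER1 axis the sirnaAGO2 arrays (9.23 to 9.40) lie to the right of the cntrl arrays (8.70 to 9.08).

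TARBP2, the partner of DICER1 that also bridges it to AGO2, lay between 8.54 and 9.03. It was 8.62, 8.92 and 8.54 in cntrl and 8.81, 9.03 and 8.80 in sirnaAGO2, with replicate 2 the highest in both and the groups overlapping. The difference of 0.18 (interval 0.022 to 0.342) had an unadjusted limma p of 0.0301 and an adjusted p of 0.209. Its other 3 differences ran from -0.12 to 0.12 with adjusted p-values from 0.287 to 0.611. PRKRA, the other RNA-binding partner and an activator of the kinase PKR, lay between 8.75 and 9.10, and its 4 differences, from -0.07 to -0.04, had adjusted p-values from 0.615 to 0.779.

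**Figure D4:**
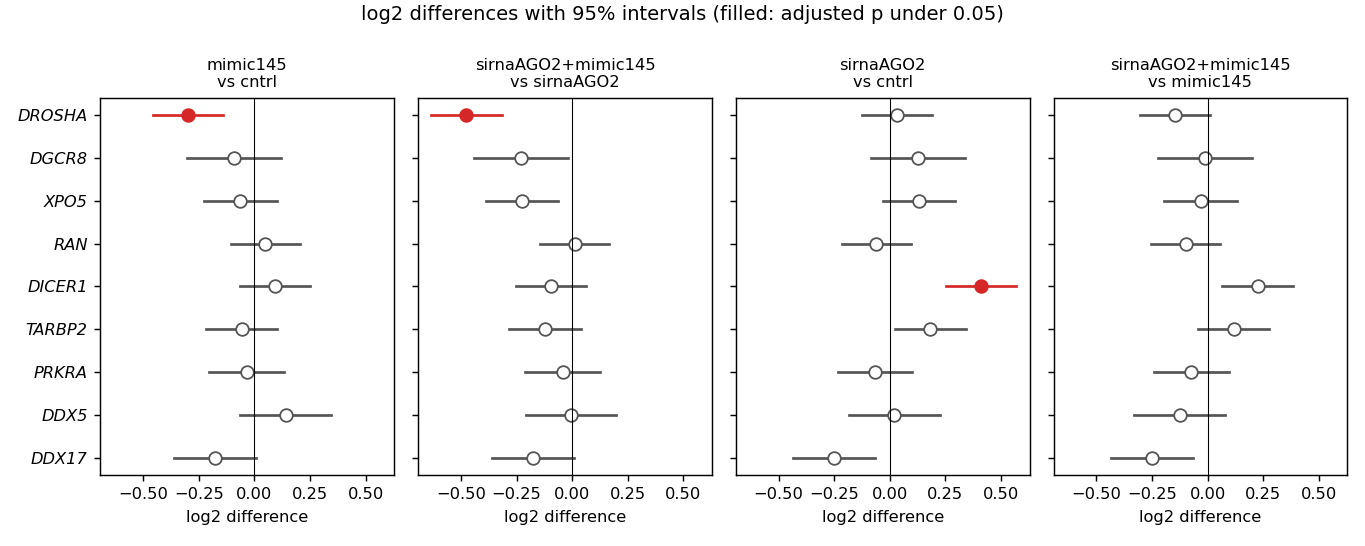
Log2 differences of the 9 genes in the comparisons of mimic and silencing, (horizontal axes) with 95% intervals from the limma fit on 12 arrays, with one panel for each comparison of 2 groups; filled red points passed the test. DROSHA lies below zero for the mimic in both Ago2 states (-0.30 and -0.47) and DICER1 above zero for silencing (0.41), and most other intervals cross zero.

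Whether the mimic acted differently in the 2 Ago2 states was tested for each member as the difference of its effects. By limma 0 of 9 passed, beside 0.011% of all genes, and 0 of 9 had an unadjusted p under 0.05, beside 16.7% of all genes. The estimates were negative for 8 of 9 members and 0.00 for DDX17, with a median of -0.14 where the median of all genes was 0.02. Estimates above 0 were found for 1 of 9 members, beside 9702 of 18252 genes, and for 3 of 25 and 2 of 11 genes in the 2 lists described below. Among the 8 negative ones, PRKRA stood at -0.01 and changed sign in 11 of 26 alternative fits. The intervals, such as -0.410 to 0.036 for DICER1 and -0.438 to 0.159 for DGCR8, leave room for no difference and for sizeable ones.

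Proteins that assist or modify the process were counted from a list of 26, of which 25 were measured (LIN28B was too dim). With the mimic and Ago2 present, 2 of 25 were higher and 0 lower: ADAR, which edits adenosines in double-stranded RNA (0.24, limma adjusted p = 0.0353), and TARDBP, an RNA-binding protein that associates with DROSHA (0.31, adjusted p = 0.0487). Of all genes, 22.5% were called in that comparison and 11.6% were called higher. In the other 4 comparisons limma called 0 of 25, with 5, 3, 3 and 2 at an unadjusted p under 0.05 for the mimic in silenced cells, silencing without and with the mimic, and the difference of mimic effects, beside 28.8%, 19%, 21.5% and 16.7% of all genes. The medians of this list were 0.06, -0.04, 0.01, -0.06 and -0.09, in the order mimic with Ago2, mimic in silenced cells, silencing without and with mimic, and difference.

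Of 11 genes of the RAN cycle and related exportins, all measured, 2 were higher with the mimic where Ago2 was present: XPO6, the exportin of actin (0.42, limma adjusted p = 0.0046), and NUTF2, which returns RAN to the nucleus (0.41, adjusted p = 0.0048). The exportin XPO7 was lower (-0.28, adjusted p = 0.0169). That makes 3 of 11 called, beside 22.5% of all genes. Limma called 0 of 11 in the other 4 comparisons, with 1, 4, 1 and 3 at an unadjusted p under 0.05 beside 28.8%, 19%, 21.5% and 16.7% of all genes. The list's medians were 0.07, -0.14, 0.15, -0.02 and -0.20 in the same order, beside medians of all genes from -0.03 to 0.02.

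Over the 12 arrays, the genes whose levels followed DROSHA most closely were POLB, a DNA repair polymerase (Pearson's r = 0.963), PHKA2, a subunit of phosphorylase kinase (0.943), and CIBAR1 (0.938). The points share the arrays and the groups, so this is a description without a test. With the mimic they differed by -0.46, -0.16 and -0.49 where Ago2 was present and by -0.54, -0.32 and -0.39 in silenced cells.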

How the data were processed

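Total RNA from 12 cultures was labelled with Cy3 and hybridized to human exon arrays, 2 per slide on 6 slides scanned on 1 day. The authors extracted spots with Agilent Feature Extraction (10.7.3.1) and deposited each array's processed intensity, which is background-corrected. They also deposited a table of log2 quantile-normalized values, used here as an alternative.

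Control spots and outlier spots were left out. Signals were floored at 1, quantile normalized and then log2-transformed, as the methods describe, and spots of one probe were averaged. Probes were named through their transcript in RefSeq tables (GRCh38.p14); 209671 of 233164 had a gene. A probe was kept if every array of some group, 3 of 3, flagged it as well above background, a gene was the mean of its kept probes, and 18252 genes measured on every array were tested. Of all spots, 60.5% to 77.3% per array were well above background and none was saturated. On each slide the mimic array had the lower share, except in replicate 3 of mimic145 (77.3%) against cntrl (73.4%). The number of arrays limits precision, and the median standard error of a difference was 0.10.

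Groups were compared with limma (3.58.1, R 4.3.3) over all 12 arrays with replicate as a blocking term, and p-values were Benjamini-Hochberg adjusted over all genes (threshold 0.05). Titles carry the numbers that pair arrays. Deviations from group means correlated at 0.14 to 0.58 for the 18 pairs of arrays that share a number and at -0.50 to 0.20 for the 36 others. Comparisons share arrays. The code was tested on simulated data.

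All 9 members, AGO2 and the genes of 2 lists (processing cofactors; RAN cycle and exportins) that passed were named. Members and lists were chosen with earlier results of these data known. The 27 alternatives covered scaling, background, probe filters and summaries, the block, the methods' paired t-test and leaving out arrays.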

Additional observations from a re-analysis of the deposited data

How the results depend on the processing

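Over the 27 alternatives DROSHA stayed lower with the mimic (-0.33 to -0.21 with Ago2 present, passing in 17; -0.54 to -0.33 in silenced cells, passing in 18), and DICER1 stayed higher on silencing without the mimic (0.34 to 0.46, passing in 15). Where a call was lost, the cause was not tested, except that leaving out arrays means fewer samples. Treating slides as random blocks gave limma adjusted p-values of 0.0299 and 0.0235 for DROSHA and 0.0203 for DICER1. The within-slide correlation in that fit was estimated at -0.239, so these p-values say little about differences between slides. Precision is limited by 3 arrays a group.

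The count of members called, 1 for the mimic in either Ago2 state, became 0 with the median over probes, without the replicate block, with only the arrays compared and by the methods' paired t-test. For silencing without the mimic it became 0 in the last 3 of these. All genes called fell too, so these counts say little about the members: the paired t-test called 0 of 18252 genes in each comparison, and the arrays compared alone called 9.94%, 0% and 1.29% for the mimic with Ago2, the mimic in silenced cells and silencing. In the same order 10.9%, 0.427% and 0.263% were called without the block, and the median over probes called 18.5% and 5.81% for the mimic. Without the replicate block the adjusted p was 0.0974 and 0.0850 for DROSHA and 0.333 for DICER1. For silencing with the mimic the median over probes gave 1 (TARBP2) instead of 0, beside 1.95% of all genes. Leaving out arrays gave 0 to 1 for each of the first 3 comparisons, and 0 whenever a whole replicate number was left out, where 1211 to 2318, 0 to 381 and 0 to 10 genes in all were called, against 4115, 1328 and 470. The averaged effects, chosen after seeing the data, gave 2 of 9 for the mimic, beside 30.9% of all genes, and 2 of 9 for silencing, beside 7.05%. AGO2 on silencing without the mimic was -0.71 but did not pass by the paired t-test (adjusted p = 0.240), and was -0.78 to -0.64 with arrays left out.

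Scaling to the 75th percentile moved the median of all genes for the mimic in silenced cells to 0.107, with 80.1% of called genes higher (58.4% in the reported fit), and DROSHA was at -0.44. On silencing without the mimic, the share of called genes that were higher was 34.5%, and 28.6% to 42.6% over the scalings.

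Changes of sign met values that did not pass the test. For the mimic with Ago2 present, the median over probes gave -0.0041 for RAN and 0.13 for PRKRA; with arrays left out, DGCR8 ran from -0.22 to 0.0097, XPO5 from -0.11 to 0.028, RAN from -0.012 to 0.12, TARBP2 from -0.15 to 0.019 and PRKRA from -0.096 to 0.013. For the mimic in silenced cells, RAN was -0.0054 by 75th percentile scaling, -0.0048 by normexp and -0.083 by the median over probes, which also gave 0.092 for TARBP2 and 0.032 for DDX5. PRKRA was 0.019 by 75th percentile scaling, 0.015 in the authors' log2 table, where DDX5 was 0.013, and 0.018 with the stricter probe filter. Arrays left out gave -0.026 to 0.031 for RAN, -0.11 to 0.018 for PRKRA and -0.044 to 0.045 for DDX5. The averaged mimic effect was 8.0e-05 for DICER1 and 0.068 for DDX5.

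For silencing without the mimic, the median over probes gave -0.016 for DROSHA and 0.021 for PRKRA, the averaged silencing effect gave -0.057 for DROSHA and -0.053 for DDX5, and DDX5 ran from -0.055 to 0.13 with arrays left out. For silencing with the mimic, DGCR8 was 0.0019 by 75th percentile scaling, 0.0030 by normexp, 0.045 with the stricter filter, 0.066 by the median over probes and 0.058 averaged, and XPO5 was 0.050 averaged. Arrays left out gave -0.071 to 0.068 for DGCR8, -0.088 to 0.0028 for XPO5 and -0.16 to 0.017 for PRKRA.

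For the difference of mimic effects, the median over probes gave 0.032 for DGCR8, 0.32 for TARBP2 and -0.096 for DDX17. PRKRA was 0.019 by 75th percentile scaling, 0.017 by normexp, 0.044 in the authors' table and 0.048 with the stricter filter, and DDX17 was -0.0042 by 75th percentile scaling. Arrays left out gave -0.090 to 0.020 for RAN, -0.14 to 0.021 for TARBP2, -0.096 to 0.098 for PRKRA and -0.13 to 0.13 for DDX17.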
